A study of Mus musculus with 48 samples.

Results

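In whole mouse kidney, the mRNA of Car14, which encodes a carbonic anhydrase of the tubule cell membrane, varied 1.68-fold over the day and its ribosome footprints 1.88-fold, both highest around lights-off. The mRNA of Slc9a3, encoding the apical sodium-proton exchanger NHE3, and of Slc38a3, encoding a glutamine transporter, had shallower daily components with peaks between the middle and the end of the light phase. The footprints of Glud1, encoding glutamate dehydrogenase, had a 24-h component of 1.30-fold that peaked in the dark phase, whereas its mRNA did not pass the same test. Slc4a4 and Car4 passed the 24-h test at neither level. These 6 genes, Slc9a3, Slc4a4, Car4, Car14, Glud1 and Slc38a3, were chosen by name for their place in proximal bicarbonate reabsorption and ammonia production, and all 6 were among the 12423 genes listed in both assays.

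The kidneys came from male C57BL/6JRj mice aged 11 to 12 weeks, untreated and without genetic modification, that were fed ad libitum and had been entrained for 2 weeks to 12 h of light and 12 h of darkness (ZT0, lights-on; ZT12, lights-off). Whole kidneys were collected every 2 h from ZT0 to ZT22, over 2 daily cycles. There were 2 replicate pools at each of the 12 timepoints, with the lysates of 2 mice in each pool. Each of the 24 pools gave 1 RNA-seq library of total RNA, depleted of ribosomal RNA, and 1 RPF-seq library of the ribosome-protected mRNA fragments left after nuclease digestion, 48 libraries in all. RNA-seq measures transcript abundance, RPF-seq measures ribosomes on the coding sequence, and their ratio within a pool, the translation efficiency (TE), measures footprint density on the coding sequence relative to mRNA abundance, both per coding length.

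The proximal tubule reclaims most of the bicarbonate that the glomerulus filters. NHE3 secretes protons into the lumen in exchange for sodium, carbonic anhydrases on the membrane and in the cytosol interconvert bicarbonate, carbon dioxide and protons, and the bicarbonate formed inside the cell leaves across the basolateral membrane through NBCe1, the product of Slc4a4. The same cells take up glutamine, in part through the basolateral transporter SNAT3 (Slc38a3), and strip its nitrogen in mitochondria, where glutamate dehydrogenase (Glud1) turns glutamate into α-ketoglutarate and releases ammonium. Ammonium is secreted into the tubule and carries acid into urine, while the carbon skeleton yields new bicarbonate on its way to glucose.

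Values are RPKM, reads scaled to the length of the coding sequence and the depth of the library, after the authors' upper quantile normalisation. The 24-h component was tested with limma by fitting cosine and sine terms of a 24-h period to log2(RPKM + 0.1), with a moderated F test and Benjamini-Hochberg adjustment over the 11863 genes whose median reached 0.5 RPKM in each assay. A gene had a 24-h component at an FDR under 0.05, and was called rhythmic when the fitted curve also spanned at least 1.5-fold from trough to peak. Folds below are of that fitted curve on the log2(RPKM + 0.1) scale, and peak times carry the standard error of the fit (SE, n = 24 libraries). A further limma test asked for any difference between the 12 timepoints. The deposited values imply between about 9824000 and 33450000 effective reads per RNA-seq library (median 16430000) and between 15510000 and 34880000 per RPF-seq library (median 22120000). Reads per gene were worked out with its longest annotated coding sequence. Slc38a3, the scarcest of the 6 genes, rested on a median of 600 reads in RNA-seq and 1450 in RPF-seq. The light-phase libraries were deeper than those of the dark phase, with a median of 18720000 against 13340000 reads for RNA-seq, and of 25990000 against 20120000 reads for RPF-seq. The RPF-seq library of ZT4 replicate 2 stood apart, with 125 of the genes listed at 0 where no other RPF-seq library had more than 14. The 6 proximal tubule markers Slc5a2, Slc5a12, Slc34a1, Lrp2, Slc22a6 and Slc7a13 were all in the tables, and their summed mRNA lay between 5116 and 5482 RPKM in the light phase and between 5133 and 5986 RPKM in the dark phase. Their summed footprints lay between 7696 and 9696 RPKM in the light (median 8505) and between 8641 and 9992 RPKM in the dark (median 9119). The mRNA of the clock genes peaked at ZT22.5 for Arntl, ZT7.52 for Nr1d1, ZT10.5 for Dbp, ZT12.3 for Per1 and ZT14.7 for Per2.

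The upstream sequences of Slc9a3 and Car14 are shown because both genes had a 24-h component in mRNA and in footprints. Each window also held an E-box or a glucocorticoid response element core, and the part of these motifs in the daily courses was not tested. Slc38a3 also had a component in both assays, but no window was available for it. The 250 bases before the RefSeq transcript start of Slc9a3 (GRCm38.p6, chr13:74121163-74121412, plus strand) and of Car14 (chr3:95904686-95904935, minus strand) read as follows, 5′ to 3′, with the capitals marking an E-box (CACGTG) in Slc9a3 and the letters of a glucocorticoid response element core (ACANNNTGT) in Car14.
Slc9a3: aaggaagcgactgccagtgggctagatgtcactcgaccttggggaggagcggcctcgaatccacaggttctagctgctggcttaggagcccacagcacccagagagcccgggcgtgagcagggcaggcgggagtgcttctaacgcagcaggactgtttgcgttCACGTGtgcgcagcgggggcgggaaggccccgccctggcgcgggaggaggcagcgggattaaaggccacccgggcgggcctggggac
Car14: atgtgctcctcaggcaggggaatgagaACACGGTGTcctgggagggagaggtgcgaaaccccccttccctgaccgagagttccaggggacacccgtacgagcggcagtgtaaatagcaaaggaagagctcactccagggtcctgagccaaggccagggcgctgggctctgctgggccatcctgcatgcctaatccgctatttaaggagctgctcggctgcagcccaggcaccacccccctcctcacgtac
Both strands were searched for the E-box CACGTG, the D-box TTATGTAA or TTACGTAA, the RORE TAGGTCA, the core ACANNNTGT and the GC box GGGCGG, and overlapping matches were counted. The E-box of Slc9a3 lay at positions -87 to -82 from the start and was followed by 3 GC boxes, and 6.02% of all 32851 RefSeq mouse promoter windows of this length held an E-box. The core in Car14 lay at positions -223 to -215, and 5.84% of windows held one. No D-box or RORE, found in 0.819%, 0.113% and 2.23% of windows, was present in any window of the 5 genes in the table, which were Slc9a3, Slc4a4 with 2 windows, Car4, Car14 and Glud1. A GC box, found in 32.7% of windows, was also present in Glud1 and in 1 of the Slc4a4 windows, and the Car4 window held none of the letters searched. These matches describe the sequence, and no binding was measured here.

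Slc9a3 (ENSMUSG00000036123, chr13:74121457-74169442 of GRCm38) opens the pathway at the brush border. Its mRNA was highest at ZT8, with 56.3 and 61.4 RPKM in the 2 pools, and lowest at ZT22, with 37.0 and 36.8 RPKM. Light-phase libraries ranged from 40.9 to 61.4 RPKM (median 50.9, n = 12) and dark-phase libraries from 36.8 to 58.6 RPKM (median 43.3, n = 12), so the phases overlapped, since levels stayed up until ZT14 (58.6 and 56.0 RPKM) and were already down at ZT2 (40.9 and 42.9 RPKM). The fitted mRNA curve spanned 1.46-fold (0.55 ± 0.07 on the log2 scale, SE) with a peak at ZT9.22 ± 0.47 h (FDR = 2.7e-06). Footprints ran from 38.6 and 40.2 RPKM at ZT2 to 63.1 and 66.5 RPKM at ZT8, and the curve spanned 1.37-fold with a peak at ZT10.0 ± 0.75 h (FDR = 0.0015). The 2 replicate series of 12 libraries, fitted alone, gave footprint folds of 1.37 and 1.39 with peaks at ZT10.7 and ZT9.37, and with 12 libraries each neither passed (FDR = 0.055 and 0.11). Translation efficiency lay between 0.937 and 1.29, with its lowest values at ZT2 (0.942 and 0.937), and its 24-h component did not pass (1.10-fold, FDR = 0.32). Whole-kidney libraries cannot tell more mRNA per cell from more cells of a type, here or in the results that follow.

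Slc4a4 (ENSMUSG00000060961, chr5:88886818-89239653), at the basolateral end, gave the steadiest mRNA of the 6 genes. All 24 RNA-seq libraries lay between 401 and 474 RPKM, with the highest pair at ZT12 (466 and 474 RPKM) and the lowest at ZT22 (402 and 401 RPKM). The fitted curve spanned 1.08-fold in RNA-seq (FDR = 0.16) and 1.02-fold in RPF-seq (FDR = 0.87), where libraries ranged from 479 to 613 RPKM. The mRNA component passed under quantile normalisation of the libraries (1.12-fold, FDR = 0.022) and with an added 12-h harmonic (1.15-fold, FDR = 0.031). With the longest annotated coding sequence, each RPF-seq library held between 26450 and 70260 reads for this gene. The narrow range was thus measured at the greatest depth of the 6 genes.

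**Figure D1:**
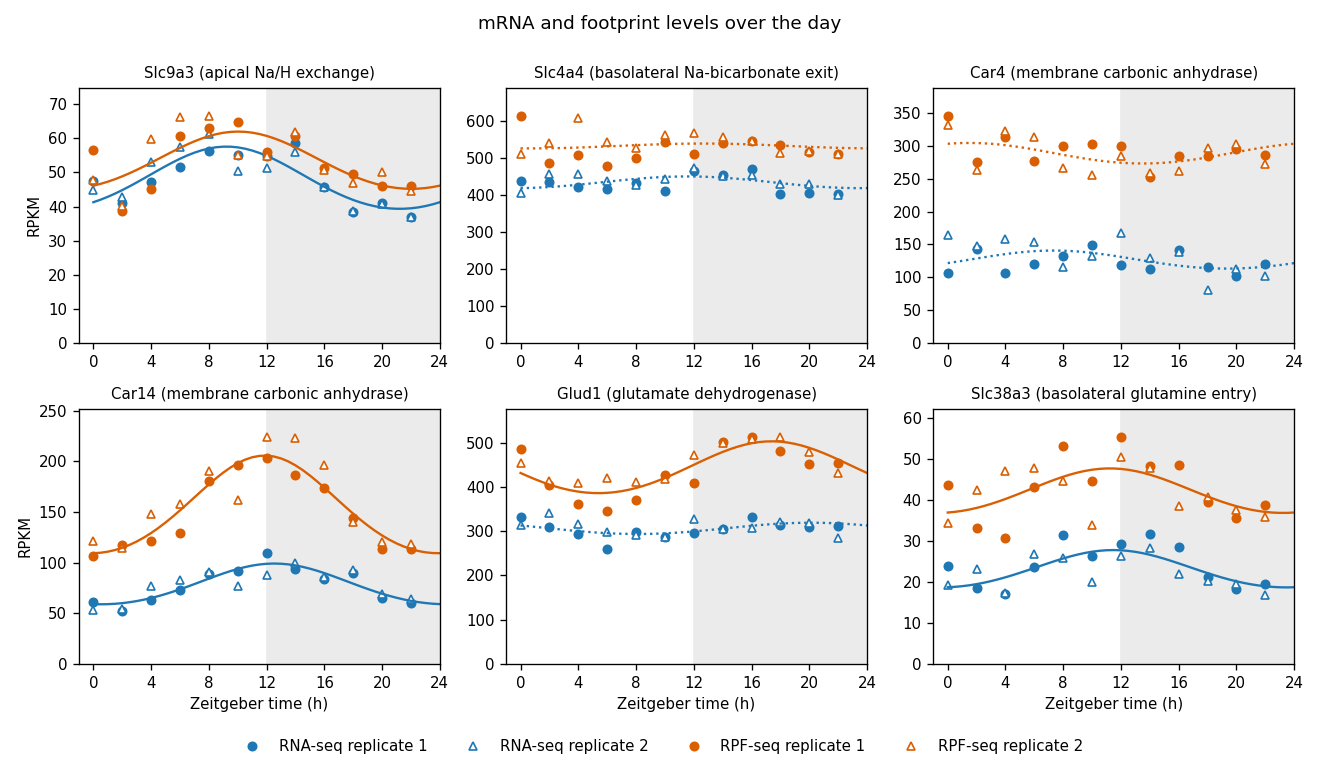
RPKM (vertical axes, from 0) of the 6 genes against zeitgeber time in h, for the 2 replicate pools of each timepoint in RNA-seq (blue) and RPF-seq (orange), with the dark phase shaded; lines are the fitted 24-h curves, solid where the FDR was under 0.05 and dotted where it was not. Car14 climbs in both assays to ZT12, where its footprints reach 203 and 224 RPKM, while Slc4a4 stays between 401 and 474 RPKM in RNA-seq.

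The membrane carbonic anhydrases behaved differently from each other. Car4 (ENSMUSG00000000805, chr11:84957786-84966044) encodes the enzyme anchored to the membrane by a lipid tail, and Car14 (ENSMUSG00000038526, chr3:95897768-95904691) the one with a membrane-spanning stretch. Car14 mRNA climbed from 52.3 and 54.6 RPKM at ZT2 through 72.9 and 83.0 at ZT6 to 109 and 87.4 at ZT12, and was back at 60.5 and 64.4 RPKM by ZT22. Its footprints went from 106 and 121 RPKM at ZT0 to 203 and 224 RPKM at ZT12 and 113 and 118 RPKM at ZT22. The pools at the high and low timepoints did not overlap in either assay, but these timepoints were picked from the same values. Slc4a4 mRNA, which did not pass, showed such a gap too (466 and 474 against 401 and 402 RPKM). The fit gave 1.68-fold in RNA-seq (0.75 ± 0.08 on the log2 scale, SE) with a peak at ZT12.5 ± 0.41 h (FDR = 3.2e-07), and 1.88-fold in RPF-seq (0.91 ± 0.07) with a peak at ZT11.9 ± 0.31 h (FDR = 4.4e-09). Each replicate series alone passed too, with mRNA folds of 1.79 and 1.58 and footprint folds of 1.91 and 1.85. The TE of Car14 had no 24-h component that passed (1.16-fold, FDR = 0.24), although its values spread from 1.51 at ZT18 to 2.57 in 1 pool of ZT12, whose partner pool had 1.86.

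Car4 mRNA ranged from 80.4 RPKM, in replicate 2 of ZT18, to 168 RPKM, in replicate 2 of ZT12. Much of that range lay between replicates: the 2 pools of ZT0 had 107 and 164 RPKM, a ratio of 1.53, and the median ratio of replicates was 1.17 against 1.05 to 1.14 for the other genes. The 24-h component of its mRNA (1.24-fold, FDR = 0.11) and of its footprints (1.11-fold, FDR = 0.16) did not pass, although the footprint component did under quantile normalisation (1.16-fold, FDR = 0.038). Its footprints were much tighter than its mRNA, between 252 and 345 RPKM with a median ratio of replicates of 1.05. The TE of Car4 reached 3.68 in the pool with 80.4 RPKM of mRNA and was 1.69 in the pool with 168 RPKM, and the SD of replicates in log2 TE was 0.25 for Car4 and 0.06 to 0.14 for the other 5 genes.

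On the ammonia side, Slc38a3 (ENSMUSG00000010064, chr9:107650634-107669530) encodes the transporter that brings glutamine into the cell from the blood side. Its mRNA had its lowest timepoint mean at ZT4 (17.1 and 17.2 RPKM) and its highest at ZT14 (31.6 and 28.2 RPKM). The curve spanned 1.49-fold, just under the minimum for a rhythmic call, with a peak at ZT11.5 ± 0.75 h (0.57 ± 0.11 on the log2 scale, SE, FDR = 0.00076). Replicates at 1 timepoint differed by up to 1.32-fold, at ZT10 (26.4 and 20.0 RPKM), and replicate series 2 alone did not pass (1.37-fold, FDR = 0.13) whereas series 1 did (1.63-fold, FDR = 0.0067). Leaving out any of 5 single libraries (ZT0 replicate 1, or replicate 2 of ZT2, ZT10, ZT12 or ZT16) brought the fold to between 1.5 and 1.57 and added the gene to the rhythmic calls. Footprints ranged from 30.6 to 55.3 RPKM, with a weaker component (1.29-fold, peak at ZT11.2 ± 1.1 h, FDR = 0.026) that was lost without either library of ZT12 (FDR = 0.062 without replicate 1 and 0.050 without replicate 2), without replicate series 1 (1.21-fold, FDR = 0.45) and with an added 12-h harmonic (FDR = 0.097). Translation efficiency stayed between 1.53 and 2.13 in 23 pools and reached 2.74 in replicate 2 of ZT4, the pool whose RPF-seq library stood apart, and its 24-h component did not pass with that pool (FDR = 0.22) or without it (FDR = 0.10).

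Glud1 (ENSMUSG00000021794, chr14:34310727-34345265) showed a daily course in footprints. At ZT14, ZT16 and ZT18 its footprints were 502 and 499, 513 and 509, and 482 and 513 RPKM, against 361 and 409 RPKM at ZT4 and 345 and 421 RPKM at ZT6. Every pool from ZT14 to ZT18 thus lay above every pool from ZT4 to ZT6, timepoints that were picked from the same values. The curve spanned 1.30-fold (0.38 ± 0.06 on the log2 scale, SE) with a peak at ZT17.4 ± 0.56 h (FDR = 5.6e-05). The mRNA of the same pools lay between 260 and 340 RPKM, with medians of 298 RPKM in the light and 311 RPKM in the dark, and its 24-h component did not pass (1.09-fold, FDR = 0.13).

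The TE of Glud1 was 1.23 and 1.29 at ZT4 and 1.65 and 1.64 at ZT14, with light-phase pools from 1.22 to 1.49 (median 1.37) and dark-phase pools from 1.38 to 1.66 (median 1.53). The fitted TE curve spanned 1.23-fold (0.30 ± 0.05 on the log2 scale, SE) and peaked at ZT16.4 ± 0.68 h (FDR = 0.0029), which tests the difference between the footprint and mRNA courses. Footprints of some other tubule genes were also higher in the dark phase. The summed thick ascending limb markers Umod and Slc12a1 had medians of 4131 RPKM in the light and 4919 RPKM in the dark. Of the 6 proximal tubule markers, 2 had a footprint component (30.9% of all genes tested), and the median fold of the 6 was 1.12. The largest fold was that of Slc5a12 (1.45-fold, peak at ZT14.5, FDR = 0.0014). The part of these genes in the Glud1 course was not tested. Replicate series 1 and 2 alone gave folds of 1.23 and 1.24 with peaks at ZT16.8 and ZT16.0, but with 12 pools neither passed (FDR = 0.16 and 0.23), and the footprint component also missed the threshold in series 2 alone (1.25-fold, FDR = 0.061). Without the ZT4 pool whose RPF-seq library stood apart, the TE component remained at 1.23-fold (FDR = 0.0055).

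**Figure D2:**
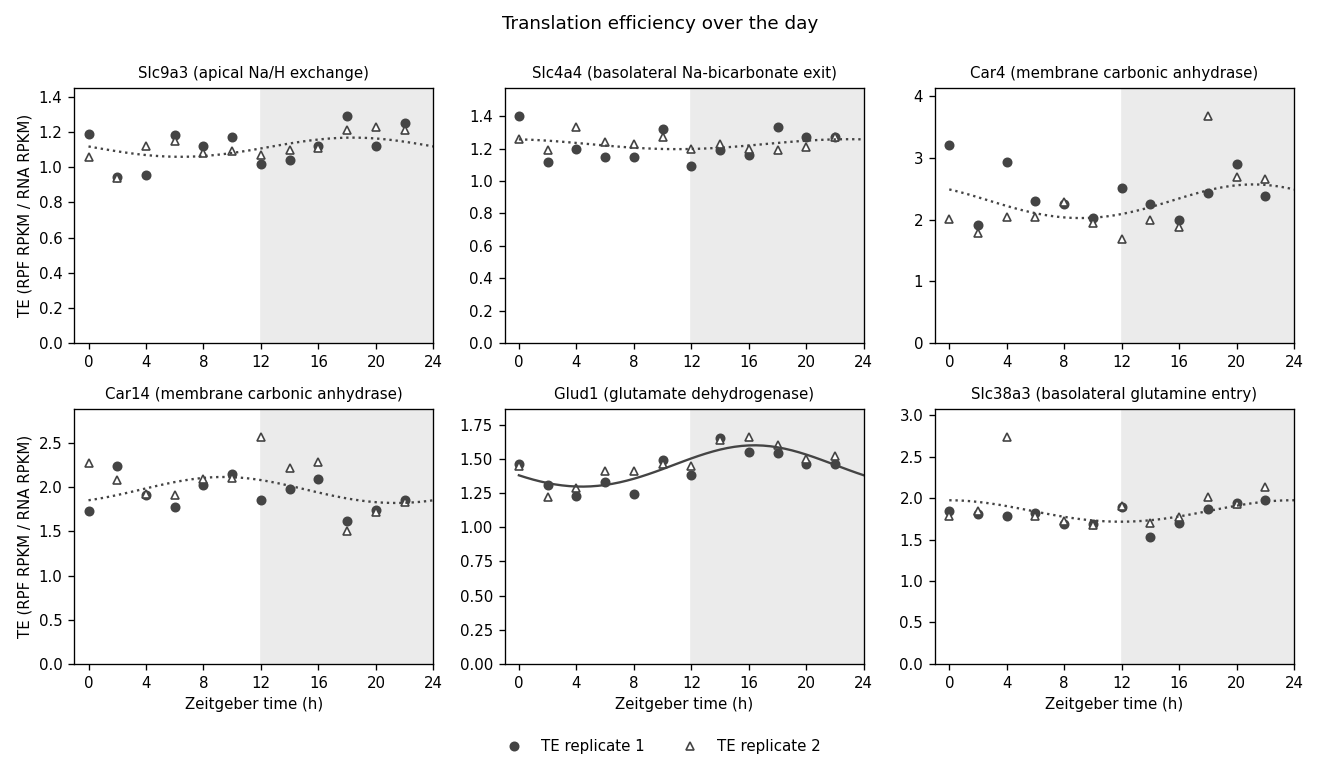
Translation efficiency, the ratio of RPF to RNA RPKM within a pool (vertical axes, from 0), against zeitgeber time in h for the 2 replicate pools of each timepoint, with the dark phase shaded and the fitted 24-h curve solid where the FDR was under 0.05. Glud1 is the gene with a solid curve, from 1.23 and 1.29 at ZT4 to 1.65 and 1.64 at ZT14, while the replicates of Car4 lie far apart at ZT0 and ZT18.

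Counted together, 3 of the 6 genes (Slc9a3, Car14 and Slc38a3) had an mRNA with a 24-h component, where 48.6% of all genes tested had one, and 1 of 6 (Car14) was called rhythmic, where 10.2% of all genes were. In RPF-seq, 4 of 6 (Slc9a3, Car14, Glud1 and Slc38a3) had a 24-h component against 30.9% of all genes, and 1 of 6 (Car14) was called rhythmic against 7.58%. In TE, 1 of 6 (Glud1) had a 24-h component against 17.1% of all genes, and 0 of 6 were called rhythmic against 3.74% (0 also at an unadjusted p under 0.05 with the same fold, and 0 by AIC selection of the 24-h terms). The limma test of any difference between timepoints passed in RNA-seq for Slc9a3, Car14 and Slc38a3 (3 of 6, against 31.0% of all genes). In RPF-seq it passed for Slc9a3, Car14 and Glud1 (3 of 6, against 12.8%). In TE it passed for 0 of 6 (against 0.851%), with Slc9a3 and Glud1 at an unadjusted p under 0.05 (2 of 6). The median fold over the 6 genes was 1.35 for mRNA, 1.30 for footprints and 1.16 for TE, beside 1.20, 1.18 and 1.19 over all genes tested. In RNA-seq the share of the 6 genes with a component was thus near that of all genes. Without replicate 2 of ZT4, whose RPF-seq library stood apart, the footprint folds were 1.37 for Slc9a3, 1.91 for Car14, 1.32 for Glud1 and 1.31 for Slc38a3, and each of these components still passed.

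Because RPKM is a level per length, the 6 genes could be ranked. The tests of the orders measure how steadily a difference recurred over libraries or pools. A bias of RPKM particular to a gene and shared by all libraries is not covered by them. The mean mRNA level over the 24 libraries fell in the order Slc4a4 (434 ± 22.7 RPKM, SD), Glud1 (306 ± 18.1), Car4 (128 ± 22.2), Car14 (77.8 ± 15.9), Slc9a3 (48.1 ± 7.49) and Slc38a3 (23.1 ± 4.66), beside a median of 16.5 RPKM over all genes tested. Each neighbour differed from the next by 1.42-fold to 2.42-fold (two-sided sign-flip permutation tests within libraries, adjusted p = 1.2e-05 for each, from the smallest p that 100000 resamples can give). The single ranges nevertheless overlapped for Car4 and Car14 (lowest 80.4 against highest 109 RPKM) and for Car14 and Slc9a3. Footprints kept this order, at 533 ± 33.1, 443 ± 49.0, 289 ± 24.7, 154 ± 38.2, 53.4 ± 8.23 and 42.3 ± 6.65 RPKM, with neighbours 1.21-fold to 2.83-fold apart and the same adjusted p. Their single ranges overlapped for Slc4a4 and Glud1 (lowest 479 against highest 513 RPKM) and for Slc9a3 and Slc38a3 (38.6 against 55.3 RPKM).

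The order of translation efficiency was another. Car4 had the highest TE of the 6 genes (geometric mean 2.28, above 97.7% of all genes tested), followed by Car14 (1.96, above 94.8%), Slc38a3 (1.84, above 92.9%), Glud1 (1.44, above 80.4%), Slc4a4 (1.23, above 68.9%) and Slc9a3 (1.11, above 61.5%), where the median of all genes was 0.956. Car14 and Slc38a3 did not differ beyond their spread (adjusted p = 0.11, permutation test, Car14 higher in 14 of 24 pools), and Car4 exceeded Car14 in 15 of 24 pools (adjusted p = 0.024, permutation test), a difference that missed the threshold without replicate series 1. The lower 3 steps of the order held in 21 to 23 of 24 pools (adjusted p of 2.3e-05 or below, permutation test). The single TE ranges of neighbours overlapped at every step. The longest annotated coding sequences of Slc9a3 and Slc4a4, at the lower end of this order, hold 2589 and 3285 nucleotides. Those of Car4 and Car14, at its upper end, hold 918 and 1014. TE is a ratio of densities per coding length, so its order is not one of the number of ribosomes on each transcript.

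**Figure D3:**
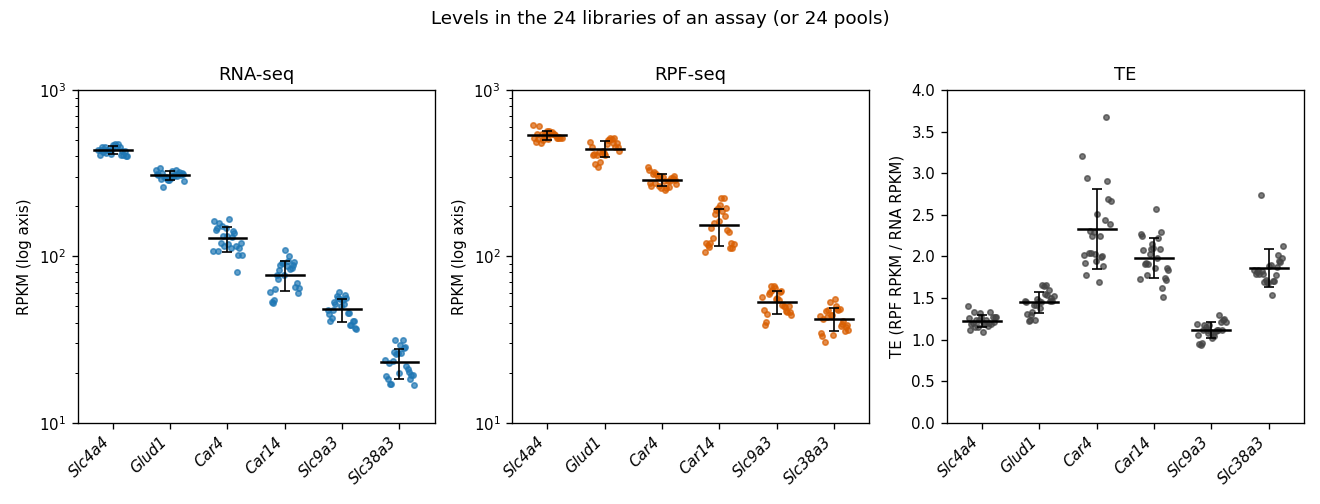
Levels of the 6 genes in the 24 RNA-seq libraries and the 24 RPF-seq libraries (RPKM, log axes) and TE in the 24 pools (linear axis), with 1 point per library or pool, arithmetic means as bars and SDs as whiskers. The order from Slc4a4 to Slc38a3 is the same in both assays, while TE is highest in Car4 and lowest in Slc9a3.

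The other genes of bicarbonate and ammonia handling were counted from 3 lists, with 45 of 49 listed genes tested. At the mRNA level 30 of the 45 had a 24-h component (48.6% of all genes tested) and 5 were called rhythmic (10.2% of all genes), and at the footprint level 22 had a component (30.9%) and 6 were called (7.58%). Their median fold was 1.20 for mRNA and 1.17 for footprints, beside 1.20 and 1.18 over all genes tested. In TE, 10 of 45 had a component (17.1% of all genes) and 1 was called (3.74%).

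Among 16 further transport genes, 11 had a 24-h component of their mRNA (48.6% of all genes) and 0 reached 1.5-fold (10.2% of all genes were called), also among the 12 at an unadjusted p under 0.05. In footprints 9 of 16 had a component (30.9% of all genes) and 2 were called (7.58%). Slc26a6, an apical anion exchanger, varied 1.69-fold in footprints with a peak at ZT7.81 ± 0.63 h (FDR = 0.00024) and 1.36-fold in mRNA (FDR = 0.0017). Kcnk5, a basolateral potassium channel, varied 1.60-fold in footprints with a peak at ZT17.1 ± 0.72 h (FDR = 0.0010). Car2, the cytosolic carbonic anhydrase, had 302 ± 29.9 RPKM of mRNA (SD, n = 24) and a footprint component of 1.21-fold (FDR = 0.036), while its mRNA did not pass (1.15-fold, FDR = 0.077). Car15, a further membrane-anchored anhydrase at 7.27 RPKM of mRNA, was called in TE (1.65-fold, peak at ZT2.59 ± 1.1 h, FDR = 0.040). Neither its mRNA (1.07-fold, FDR = 0.75) nor its footprints (1.57-fold, FDR = 0.066) passed the 24-h test. The footprints, at 2.42 to 9.14 RPKM, did differ between timepoints (FDR = 0.012, limma test of any difference).

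Of 12 tested partners, receptors and sensors of NHE3, 7 had a component of their mRNA (48.6% of all genes) and 6 one of their footprints (30.9%), and 1 was called at each level (10.2% and 7.58%). Sgk1, a kinase induced by corticosteroids that acts on sodium transport, was the gene called in both, with 29.5 to 117 RPKM of mRNA, a 2.64-fold curve in RNA-seq (peak at ZT16.0 ± 0.40 h, FDR = 3.0e-07) and 2.43-fold in RPF-seq (FDR = 3.5e-06). Slc9a3r1, the scaffold that holds NHE3 at the brush border, had a mRNA component of 1.17-fold (peak at ZT10.1 ± 1.2 h, FDR = 0.034), and its footprints did not pass (1.09-fold, FDR = 0.15).

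Of 17 tested genes of the glutamine and carbon skeleton list, the longest of the lists, 12 had a component of their mRNA (48.6% of all genes) and 4 were called rhythmic (10.2%). In footprints 7 had a component (30.9%) and 3 were called (7.58%). Whether the lists differ from other genes was not tested. Slc6a19, the apical transporter of neutral amino acids including glutamine, ranged from 135 to 323 RPKM of mRNA and varied 2.14-fold with a peak at ZT7.86 ± 0.37 h (FDR = 8.7e-08), and 2.10-fold in footprints. Glul, which makes glutamine from glutamate and ammonium, varied 1.67-fold in mRNA with a peak at ZT15.0 ± 0.37 h (FDR = 6.5e-08) and 1.47-fold in footprints. Pck1, the phosphoenolpyruvate carboxykinase that carries the carbon skeleton towards glucose, ranged from 602 to 2629 RPKM of mRNA and varied 2.30-fold with a peak at ZT14.7 ± 0.57 h (FDR = 3.7e-05), and 2.27-fold in footprints (FDR = 1.6e-04). G6pc, which releases that glucose, varied 1.83-fold in mRNA with a peak at ZT20.0 ± 0.50 h and 1.66-fold in footprints.

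**Figure D4:**
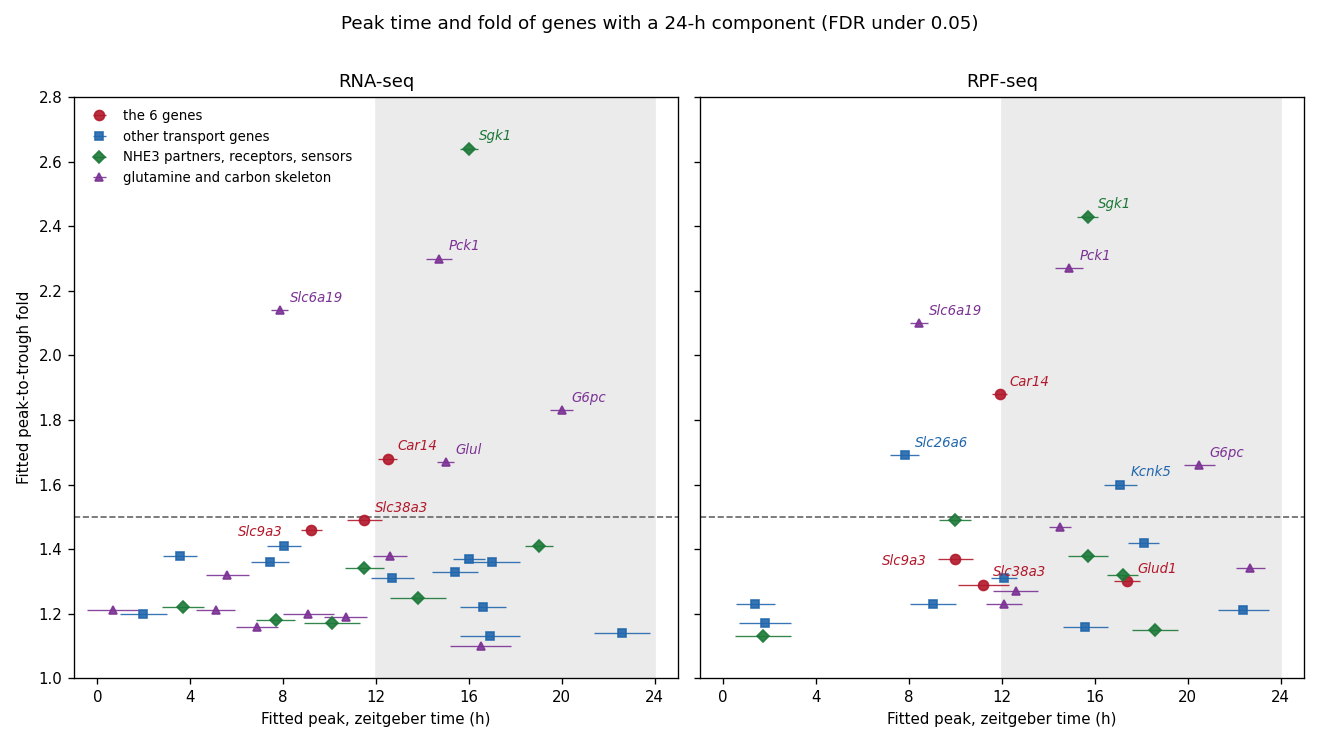
Fitted peak time (horizontal axes, zeitgeber time in h, whiskers 1 SE) against fitted peak-to-trough fold (vertical axes, linear from 1) for those of the 6 genes and of the 45 pathway genes with a 24-h component, in RNA-seq and RPF-seq; the dashed line is the 1.5-fold minimum and shading the dark phase. In RPF-seq Car14 lies at 1.88-fold and ZT11.9, between Slc6a19 at ZT8.42 and Pck1 at ZT14.9, and Glud1 lies at 1.30-fold and ZT17.4.

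The genes whose mRNA course was most like each of the 6, by Pearson r of log2(RPKM + 0.1) over the 24 RNA-seq libraries, differed in whether the likeness was also found in footprints. Tef, a clock-controlled transcription factor with a peak at ZT11.4 in RNA-seq, was the nearest to Car14 (r = 0.898 in RNA-seq and 0.913 in RPF-seq), followed by Dgat2 (0.893 and 0.620). For Slc9a3 they were Rab43 (0.892 and 0.598) and Cpeb3 (0.888 and 0.550), and for Slc38a3 Igfbp4 (0.866 and 0.491) and Ccnd3 (0.843 and 0.365). Car4 mRNA ran closest to Txn2 (0.889) and Ik (0.878), with r of -0.0168 and 0.026 between the footprints of the same genes. Slc4a4 ran closest to Suox (0.798 and 0.271) and Kcnj16 (0.758 and 0.0484), and Glud1 to Slc22a30 (0.755 and 0.410) and Hibch (0.746 and 0.254). The libraries share their depth, normalisation and time of day, and these coefficients, the highest out of all genes tested, are descriptions only.

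Markers of some other cell types also differed in median between the phases in these whole-kidney libraries, with overlapping ranges. The scarce adipocyte markers Adipoq and Plin1 summed to a median of 1.86 RPKM of mRNA in the light (0.656 to 6.05) and 0.844 RPKM in the dark (0.25 to 3.06). The principal cell markers Aqp2 and Scnn1g had summed mRNA medians of 127 RPKM in the light (96.2 to 170) and 169 RPKM in the dark (106 to 226). Of 3 intercalated cell markers, 0 had a 24-h component in RNA-seq (48.6% of all genes tested) or in RPF-seq (30.9%). Of the 6 proximal tubule markers, 4 had a 24-h component of their mRNA (48.6% of all genes tested) and 0 were called rhythmic (10.2% of all genes). The largest mRNA fold among these 6 was that of Slc7a13 (1.41-fold, peak at ZT19.6). The part of cell makeup and of depth in the courses of Car14, Slc9a3, Slc38a3 and Glud1 was not tested.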

How the data were processed

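Each library came as 1 table of RPKM values per Ensembl gene. Per the methods and the submitters' processing notes, the authors trimmed reads with cutadapt, mapped them with Bowtie2 2.2.1 and TopHat2 2.0.11 to GRCm38.p2, took transcript models from Cufflinks 2.2.1, counted reads on coding sequences, normalised by upper quantiles with edgeR and deposited the resulting RPKM values, leaving out genes under a cutoff. This scaling hides any change in total mRNA or footprints per cell.

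RPKM are not counts, so no count model was used. Relative depth was recovered from the steps between the values of low genes (all within 0.1 of whole reads). Tests (R 4.3.3; lmFit and eBayes of limma 3.58.1 with a variance trend) were tested on simulated data and are described with the results. RNA-seq and RPF-seq libraries of a pool share a lysate (correlation of deviations 0.106 to 0.446 over 12 pairs), so TE was taken within the pool. Orders were tested in Python 3.11.15 with numpy 2.4.6, with Benjamini-Hochberg adjustment over 15 pairs. Positions are from GENCODE vM21 and promoters from RefSeq. The labels do not say which daily cycle of collection, or which experiment, a replicate pool came from. The p-values of the 24-h test measure the spread of pools around the fitted curve. Those of the timepoint test measure the spread between replicate pools.

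The genes and lists were chosen with earlier results of these data known, and some listed genes are not reported here. Named were the 6 genes, every listed pathway gene called rhythmic, Car2, Slc9a3r1 and Pck1, the 5 clock genes, and the 2 genes with the highest r for each of the 6; marker genes, and the other genes named in the closing section, were named after their values were seen. Alternatives were other pseudocounts and RPKM minimums, quantile normalisation, a 12-h harmonic, AIC selection, no fold minimum, a replicate block and leaving out libraries.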

Additional observations from a re-analysis of the deposited data

Results flagged for a closer look

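Translation efficiency is the ratio of footprints to mRNA in a pool, so a 24-h component of TE is a test of the difference between the footprint and the mRNA course of a gene. Among the 6 genes this difference passed for Glud1 (1.23-fold, FDR = 0.0029, limma). Among the pathway genes named above it passed for Car15 (1.65-fold, FDR = 0.040) and for Glul (1.15-fold, FDR = 0.035), whose TE peaked at ZT4.58 while its mRNA peaked at ZT15.0. Glud1 was not alone in its course. Of the 45 pathway genes tested, 10 had a TE component (17.1% of all genes tested), 7 with a dark-phase and 3 with a light-phase peak. Dlst (1.22-fold, peak at ZT16.3, FDR = 0.0089) and Sdha (1.2-fold, peak at ZT18.4, FDR = 0.0099) lay near Glud1 in TE fold and phase.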

How the results depend on the processing

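Car14 was called rhythmic in RNA-seq and RPF-seq under every alternative run (35 in each assay). With an added 12-h harmonic, 2 of the 6 genes were called in RNA-seq instead of 1, since Slc38a3 passed 1.5-fold. Without the fold minimum the counts were 3 for mRNA, 4 for footprints and 1 for TE. Leaving out 1 library or 1 replicate series gave 1 to 2 in RNA-seq. Quantile normalisation added Car4 to the genes whose footprints differed between timepoints (4 against 3). The TE order of Car4 over Car14 missed the threshold without replicate series 1, so that 3 steps of the order held against 4. The other counts were unchanged, and over the single genes 605 values stayed on their side of the threshold, 10 lost the call and 3 gained one. Of the 10, 7 came from dropping a replicate series, which leaves 12 libraries. Same-numbered replicates of different timepoints did not deviate together on average. The mean r over 66 pairs of timepoints was 0.029 for mRNA, 0.020 for footprints and 0.036 for TE. Single pairs ranged from -0.181 to 0.480 for mRNA, from -0.204 to 0.185 for footprints and from -0.099 to 0.338 for TE. These means cannot tell whether the replicate number marks the daily cycle of collection. A replicate block gave 1 rhythmic gene at the mRNA level, 1 at the footprint level and 0 for TE, and 3, 3 and 0 genes that differed between timepoints, as without it. Slc38a3 had the fewest reads of the 6 genes in RNA-seq (down to 270), and Car4 had the widest spread between replicates in mRNA. Whether either limited what could be detected in these genes was not tested.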

Other observations

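Other genes of these lists had 24-h components under 1.5-fold. Aqp1, the water channel of the proximal tubule, had mRNA that peaked at ZT16.0 (1.37-fold, FDR = 3.4e-04) and footprints at ZT18.1 (1.42-fold, FDR = 4.5e-04). The sodium pump subunit Atp1b1 peaked at ZT8.05 in mRNA (1.41-fold) and ZT12.1 in footprints (1.31-fold), with a TE component of 1.37-fold (FDR = 0.0046). Chp1, a partner of sodium-proton exchangers, peaked at ZT19.0 in mRNA (1.41-fold, FDR = 5.9e-05) and ZT17.2 in footprints (1.32-fold). The sulphate and bicarbonate exchanger Slc26a1 peaked early, at ZT3.55 in mRNA (1.38-fold, FDR = 5.8e-04) and ZT1.38 in footprints (1.23-fold). Ezr, the linker of brush border proteins to actin, had a TE component of 1.28-fold with a peak at ZT19.7 (FDR = 0.0018) and a mRNA component of 1.18-fold (FDR = 0.0021), while its footprints did not pass (1.08-fold, FDR = 0.38).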
